A study of Mus musculus with 6 samples.

Results

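miR-21 and miR-31 are microRNAs (miRNAs), short guide RNAs that pair with messenger RNAs and silence them, and both are known from skin repair. They were read here in small RNA libraries of exosomes, the small vesicles that cells shed into their medium, from cultured mouse skin cells. The members were picked by name: mmu-miR-21a-5p, mmu-miR-21a-3p, mmu-miR-31-5p and mmu-miR-31-3p, the mature arms of both hairpins, which are 4 of the 1964 mature miRNA rows listed for each library. All 4 had a row, and 3 had reads in each of the 6 libraries. The exception was miR-31-3p, with 0 reads in 2 of the fibroblast libraries.

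The libraries came from epidermal stem cells (ESC, 3 libraries) and dermal fibroblasts (Fb, 3 libraries) of dorsal skin, at passage 0 to 1. Per the labels' protocols, the ESC were rapidly adhering epidermal cells of C57BL/6 mice aged 3 weeks, grown in serum-free keratinocyte medium. The Fb were taken from db/db mice, an obese and diabetic strain, aged 14 weeks, although the strain label of these libraries reads C57BL/6. They grew in medium with 10% fetal bovine serum and were moved to serum-free medium for 2 days before exosomes were collected. Cell type, donor strain, age and medium changed together between the groups and cannot be told apart. The labels call the libraries biological replicates but do not tie them to single animals, and a p-value here reflects only how far such libraries differed, which may be technical.

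A miRNA hairpin is cut by Drosha and Dicer into a duplex, and one arm, the guide, is usually kept in an Argonaute protein while the other, the passenger, is mostly lost. The arms are named 5p and 3p after their place in the hairpin, and in both hairpins the 5p arm is known as the guide. miR-21 lowers Pdcd4, a brake on growth, is induced by STAT3 and AP-1 signalling, and is best known in fibroblasts for its part in fibrosis. miR-31 rises in keratinocytes at the wound edge, where it is known to favour their proliferation and migration.

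The mature sequences, from the RefSeq annotation of GRCm38.p6, are printed because the arms are counted apart and because near copies of miR-21a could take its reads. Each runs 5′ to 3′ with the seed, bases 2 to 8 that pair with targets, in capitals.
mmu-miR-21a-5p: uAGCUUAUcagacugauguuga
mmu-miR-21a-3p: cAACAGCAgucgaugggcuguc
mmu-miR-31-5p: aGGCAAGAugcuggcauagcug
mmu-miR-31-3p: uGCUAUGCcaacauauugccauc
mmu-miR-21c: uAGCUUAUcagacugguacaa
mmu-miR-21b: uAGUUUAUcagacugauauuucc
The 4 members have 4 different seeds. Among the RefSeq mature miRNAs, the miR-21a-5p seed occurs in 1 other, miR-21c, which has the first 15 bases of miR-21a-5p. The other 3 seeds occur in 0 others.

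Almost no reads were listed on these near copies. miR-21c was listed at no more than 0.333 reads in any library and miR-21b at no more than 7.39e-06 reads. The hairpin row of miR-21a held 1.01 to 12.1 reads per library and that of miR-31 at most 1.02 reads, so nearly all reads of both genes were counted on their mature arms.

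Mir21a lies on chromosome 11 (86584067 to 86584158, GRCm38, minus strand), inside exon 12 of Vmp1, in its untranslated region in GENCODE M21. Mir31 lies on chromosome 4 (88910557 to 88910662, minus strand), in exon 3 of the lncRNA AL805899.1. Its hairpin is shown with the 5p arm and then the 3p arm in capitals, since the reads of these 2 arms differed most.
Mir31 hairpin: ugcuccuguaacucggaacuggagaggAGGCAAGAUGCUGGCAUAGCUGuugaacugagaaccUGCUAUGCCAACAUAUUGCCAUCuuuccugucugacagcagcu

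The libraries differed far more in miRNA reads than in all reads. Reads assigned to any RNA numbered 9894485 to 11149046 in ESC and 6914504 to 8691350 in Fb libraries. Mature miRNAs received 1392859 to 1522604 reads in ESC and 49019 to 177990 reads in Fb libraries, which was 13.3% to 14.7% and 0.613% to 2.05% of the reads assigned to any RNA. The lowest of these shares belonged to Fb replicate 1. A keratinocyte list (miR-200 family, miR-203, miR-205) had all 7 members detected in both groups and summed to 59872 to 74600 CPM (reads per 1000000 mature miRNA reads) in ESC libraries. In Fb libraries it summed to 7457 to 14174 CPM. A fibroblast list (miR-143, miR-145a, miR-199, miR-214, miR-152) of 9 reached 679 to 766 CPM in the ESC libraries, against 197344 to 309200 CPM in the Fb ones. Blood-cell miRNAs came to 198 to 304 CPM (ESC) and to 1182 to 22308 CPM (Fb), with 5 of 8 members at 3 or more reads summed over each group and miR-142a-3p at 0 in every library. Most of this sum in each library was miR-486a-5p and miR-486b-5p, at 11311 and 10854 CPM in Fb replicate 3. No other member of the list exceeded 102 CPM in any library. The part of other cells or of serum in the values below was not tested.

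miR-21a-5p, the guide arm, was among the most abundant miRNAs of both kinds of exosome. It stood at 97403, 97491 and 88588 CPM in ESC replicates 1 to 3. In Fb replicates 1 to 3 it stood at 34231, 74790.5 and 69071 CPM. The ESC libraries lay close together and above every Fb library, and Fb replicate 1 was far below the other 2 Fb libraries. Among mature miRNAs it ranked 2, 2 and 3 in the ESC libraries and 10, 3 and 3 in the Fb libraries. The neighbours in that order, named after their values were seen, were miR-182-5p and miR-10b-5p in ESC exosomes. In Fb replicates 2 and 3 miR-199b-3p and miR-143-3p stood above it.

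The mean was 94494 ± 5115 CPM (SD, n = 3) for ESC, and for Fb exosomes it was 59364 ± 21953 CPM (SD, n = 3). The log2 fold change, ESC over Fb, was 1.02 (SE 0.39) and did not pass at an adjusted p = 0.0679 (edgeR's quasi-likelihood test, Benjamini-Hochberg over 325 miRNAs). The result turned on single libraries and on scaling. Without Fb replicate 1 the log2 fold change was smaller, 0.77 (SE 0.12), but passed at an edgeR adjusted p = 0.00119. It passed without ESC replicate 2 (1.35, adjusted p = 0.0464) or Fb replicate 2 (1.48, adjusted p = 0.0435) as well, and by DESeq2 (1.15, adjusted p = 0.0116).

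miR-21a-3p, the passenger arm, was far less abundant than its guide in every library. Its values were 2558, 2209 and 2549.5 CPM in ESC replicates 1 to 3 and 4732, 1960.3 and 2880.0 CPM in Fb replicates 1 to 3. The groups overlapped, and the order of the Fb libraries was unlike that of the guide arm, since Fb replicate 1 had the lowest miR-21a-5p and the highest miR-21a-3p. The mean was 2439 ± 199 CPM (SD, n = 3) for ESC, and for Fb exosomes it was 3191 ± 1412 CPM (SD, n = 3). Its log2 fold change was 0.07 ± 0.33 (SE) and did not pass (edgeR adjusted p = 0.869). With library totals alone it was -0.38, where the median of all miRNAs moved from -0.11 to -0.52 and miR-21a-3p stood 0.14 above it. With a stricter count filter it was -0.49, beside a median of -0.18, and no direction is given.

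miR-31-5p, the guide arm of miR-31, was higher in ESC exosomes. It stood at 4395, 4067 and 3592 CPM in ESC replicates 1 to 3. In Fb replicates 1 to 3 it stood at 2101, 1534 and 429 CPM, from 103, 273 and 51 reads. Every ESC library was above every Fb library, by 1.71-fold between the nearest pair, and Fb replicate 3 was the lowest. Its rank was 35 to 36 in ESC and 58, 65 and 115 in Fb libraries.

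The mean was 4018 ± 404 CPM (SD, n = 3) for ESC, and for Fb exosomes it was 1355 ± 850.1 CPM (SD, n = 3). The rise on the log2 scale was 2.01 ± 0.53 (SE) and passed at an edgeR adjusted p = 0.0181. The call was lost without ESC replicate 3 (adjusted p = 0.0517), with library totals alone in place of TMM (trimmed mean of M-values) factors (1.58, adjusted p = 0.0506) and with a stricter count filter (1.45, adjusted p = 0.0680), while the direction held in each of these. With library totals alone the median of all miRNAs was -0.52, and miR-31-5p stood 2.10 above it, against 2.13 above the median with TMM factors.

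miR-31-3p, the passenger arm, was rare. It had 64, 117 and 37 reads in ESC replicates 1 to 3, or 45.9, 79.1 and 24.3 CPM. In Fb replicates 1 to 3 it had 0, 2 and 0 reads. A count of 0 there allows up to 61.2 CPM in replicate 1 and 25.3 CPM in replicate 3 (3 reads, counting error only), so these Fb libraries could not show levels like those of ESC replicate 3. Over the groups, 218 of 4394274 and 2 of 345757 miRNA reads put the ESC rate 8.58-fold above that of Fb exosomes (exact 95% interval 2.35 to 71.3, counting error only). The edgeR test called it higher in ESC exosomes (adjusted p = 0.0226), but it had passed the count filter through the ESC libraries alone, and the call was lost without Fb replicate 3 (adjusted p = 0.0933).

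**Figure D1:**
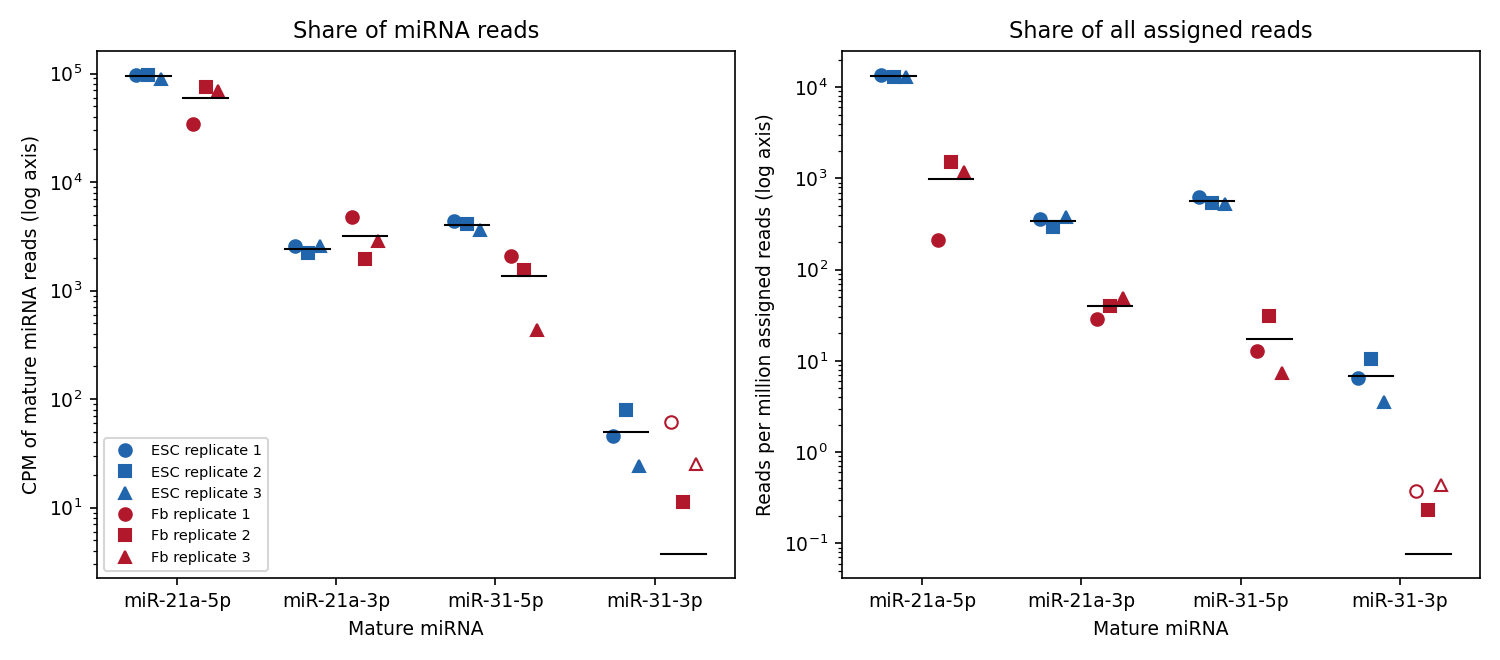
Level of each member in each library on log axes, in CPM of mature miRNA reads (left) and in reads per 1000000 assigned reads (right), with ESC in blue, Fb in red and one symbol per replicate. Black lines are group means and open symbols mark 0 reads, drawn at the floor of 3 reads. On the left miR-21a-5p and miR-31-5p are higher in all ESC libraries and miR-21a-3p overlaps, and on the right the groups are separate for all 4 members.

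Of the 3 members with reads in every library, 1 (miR-31-5p) was called higher in ESC exosomes and 0 higher in Fb exosomes. The call of miR-31-3p is left out of this count, since it entered the test through the ESC libraries alone. Among all 325 miRNAs tested 161 (49.5%) were called, 71 (21.8%) with ESC exosomes higher and 90 with Fb exosomes higher. With library totals alone these counts were 52 and 103. The counts over all 325 keep miRNAs read in a single group. Examples are miR-193b-5p (mean 0 CPM in Fb exosomes, called higher in ESC) and miR-143-5p (mean 0 CPM in ESC exosomes, called higher in Fb). They are therefore not a like-for-like background for the 3 members. Leaving out a library changed both the calls and how many miRNAs were tested. With ESC exosomes higher there were 46 of 244 without ESC replicate 1, 38 of 245 without ESC replicate 3, 38 of 374 without Fb replicate 3 and 103 of 380 without Fb replicate 1. In CPM, miR-21a-5p and miR-31-5p had every ESC library above every Fb library, as did the listed values of 81 (24.9%) of the 325. The 81 were counted without regard to the floors. They include miR-3097-5p (mean 17.9 CPM in ESC and 0 in Fb exosomes), which lies below the floors of Fb replicates 1 and 3, 61.2 and 25.3 CPM. The listed values of miR-31-3p were ordered in the same way, but the floors of Fb replicates 1 and 3 lie above its level in ESC replicate 3, so this order was not resolved. The members' log2 fold changes stood apart from the median of all tested miRNAs, -0.11, by 1.13 for miR-21a-5p, 0.18 for miR-21a-3p, 2.13 for miR-31-5p and 3.54 for miR-31-3p. Of the miRNAs tested, 27.4% had a larger log2 fold change than miR-21a-5p and 14.2% a larger one than miR-31-5p. Both shares also count miRNAs without Fb reads, such as miR-193b-5p (8.41).

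**Figure D2:**
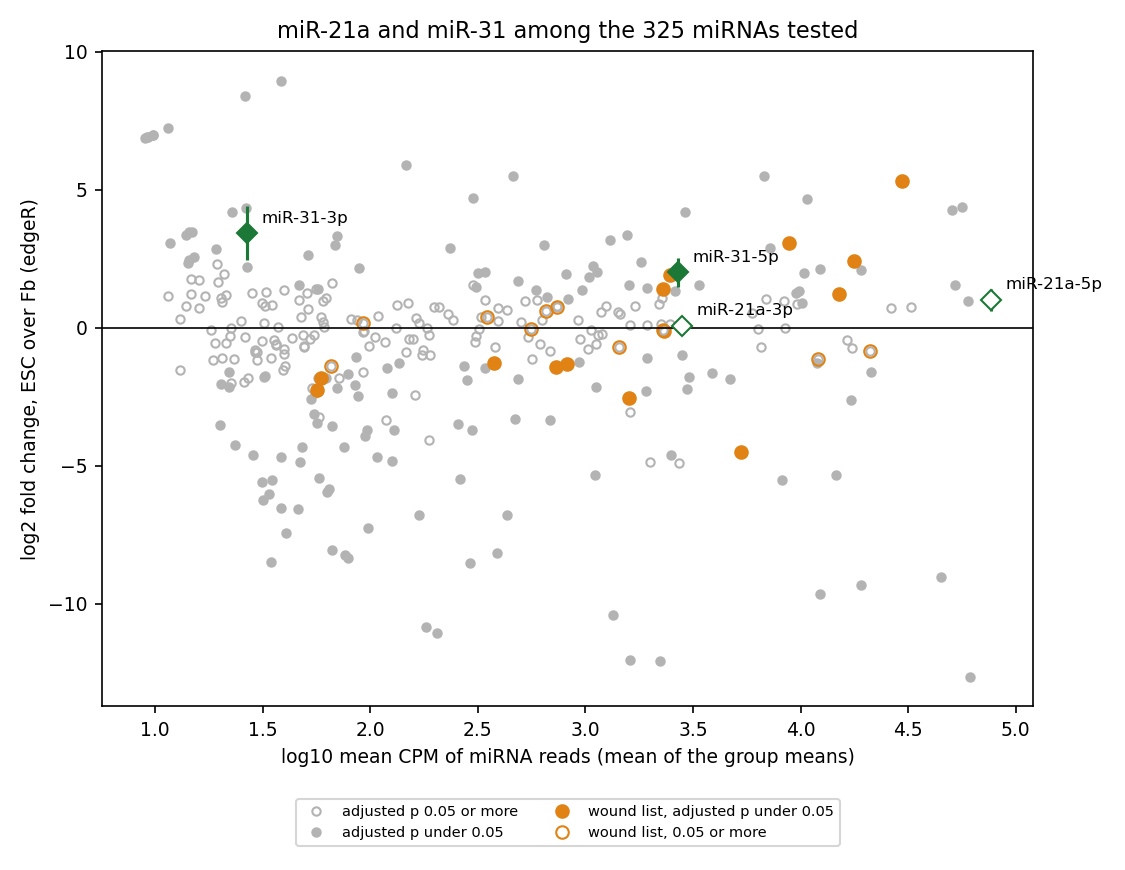
The log2 fold change, ESC over Fb, of each miRNA tested against its mean level (log10 CPM of miRNA reads). Green diamonds are the members with SE bars, orange points the wound and inflammation list, and filled symbols passed an edgeR adjusted p of 0.05. miR-31-5p (2.01) and miR-31-3p (3.43) are filled, and miR-21a-5p (1.02), the most abundant of them, and miR-21a-3p (0.07) are open.

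As shares of all assigned reads the members were far apart between the groups. miR-21a-5p took 13712, 12931 and 13004 reads per 1000000 assigned reads in ESC replicates 1 to 3, against 209.9, 1532 and 1186 in Fb replicates 1 to 3. The nearest ESC and Fb libraries differed 8.44-fold, and the means, 13216 ± 431 and 976 ± 685 (SD, n = 3 each), differed 13.5-fold. miR-31-5p took 619, 539.5 and 527 reads per 1000000 assigned reads in ESC replicates 1 to 3 and 12.9, 31.4 and 7.38 in Fb replicates 1 to 3. Its means of 562 ± 49.7 and 17.2 ± 12.6 (SD, n = 3 each) differed 32.6-fold. miR-21a-3p, which overlapped as a share of miRNA reads, was separate on this scale, with 293 to 374 in ESC and 29.0 to 49.5 in Fb libraries and an 8.66-fold ratio of means.

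On this scale all 4 members had every ESC library above every Fb library, with an exact two-sided permutation p = 0.1 each, the smallest that 3 against 3 libraries allow. This was so for 242 (74.5%) of the 325 miRNAs tested. These values are shares, so less of a miRNA and more of other RNAs cannot be told apart. tRNA genes took 78.7% to 79.9% of assigned reads in ESC and 80.5% to 89.6% in Fb libraries. Without tRNA reads in the total the ratios of means were 10.9 for miR-21a-5p, 24.5 for miR-31-5p and 6.17 for miR-21a-3p. In bulk exosomes fewer vesicles with a miRNA and less of it per vesicle cannot be told apart either.

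When the members were fitted together with all other RNAs, 0 of the 3 with reads in every library passed by edgeR, 0 had an unadjusted p under 0.05 and 0 passed by DESeq2. The edgeR test called 354 (11.8%) of 2999 RNAs, 109 (3.63%) with ESC exosomes higher and 245 with Fb exosomes higher. On the log2 scale the ESC excess of miR-31-5p was 2.72 (SE 1.29, adjusted p = 0.251 by edgeR), miR-21a-5p 1.39 (SE 1.49, adjusted p = 0.686) and miR-21a-3p 1.11 (SE 1.07, adjusted p = 0.635). miR-31-3p, in the test through its ESC libraries alone, passed by edgeR (adjusted p = 0.0261), but not by DESeq2 (adjusted p = 0.0847) and not without any one library other than Fb replicate 2. The median log2 fold change of the 307 miRNAs in this fit was 1.15, so miR-31-5p stood 1.57, miR-21a-5p 0.24 and miR-21a-3p -0.04 from it.

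These calls depended on the scaling. The TMM factors of this fit ranged from 0.231 to 2.18 among the Fb libraries and from 1.62 to 1.63 among the ESC libraries. With library totals alone the log2 fold changes were 3.76 for miR-21a-5p (edgeR adjusted p = 0.00673), 3.11 for miR-21a-3p (adjusted p = 0.0104) and 5.03 for miR-31-5p (adjusted p = 0.00240). The median of the 307 miRNAs moved with them, from 1.15 to 3.15, so that miR-21a-3p stood -0.04, miR-21a-5p 0.61 and miR-31-5p 1.88 from it. The change moved the median of all RNAs from 0.07 to 0.81 and gave 203 RNAs called with ESC exosomes higher and 149 with Fb exosomes higher.

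The ratio of the miR-21a arms spread over a wider range among the Fb than among the ESC libraries. There were 38.1, 44.1 and 34.7 reads of miR-21a-5p per read of miR-21a-3p in ESC replicates 1 to 3, and 7.23, 38.1 and 24.0 in Fb replicates 1 to 3. Fb replicate 2 fell among the ESC libraries and Fb replicate 1 stood apart. In that library the 3p arm was 12.1% of the 1910 reads of both arms (exact 95% binomial interval 10.7 to 13.7), against 2.55% (2.30 to 2.83) in Fb replicate 2 and 4.00% (3.60 to 4.44) in Fb replicate 3. In ESC replicates 1 to 3 the 3p arm was 2.56% (2.48 to 2.64), 2.22% (2.14 to 2.29) and 2.80% (2.71 to 2.89). The intervals cover counting error only, and within both groups they did not overlap, so libraries of either kind differed by more than counting error.

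The mean log2 arm ratio of miR-21a was 5.28 ± 0.17 (SD, n = 3) for ESC and 4.23 ± 1.24 (SD, n = 3) for Fb exosomes. The difference of 1.05 was smaller than the spread of the Fb libraries (exact two-sided permutation p = 0.3, adjusted p = 0.520 over 123 hairpins with at least 10 reads per arm over the 6 libraries). Without Fb replicate 1 it was 0.36.

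For miR-31 the 5p arm prevailed more strongly. It had 95.7, 51.4 and 148 reads per 3p read in ESC replicates 1 to 3, and 427 reads against 2 in the Fb libraries together. The 3p share was 1.03%, 1.91% and 0.672% in ESC replicates 1 to 3, with exact 95% binomial intervals of 0.798 to 1.32, 1.58 to 2.28 and 0.474 to 0.925 that cover counting error only. In Fb replicate 2 it was 0.727% (0.0882 to 2.60), and the 0 reads of Fb replicates 1 and 3 have upper bounds of 3.52% and 6.98%. The Fb intervals take in the shares of all ESC libraries, so no difference was detectable at this depth. With 0.5 read added to each arm the mean log2 ratios were 6.48 ± 0.76 and 7.05 ± 0.56 (SD, n = 3 each; exact two-sided permutation p = 0.4, adjusted p = 0.600). The sign of the difference, -0.57, turned to 0.16 with 1 read added.

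The arm test could not call a difference in any hairpin, because 3 against 3 libraries allow no permutation p below 0.1. Even a hairpin whose groups did not overlap, such as miR-10a, had an adjusted p of 0.256 (exact two-sided permutation test). The lack of a call for miR-21a and miR-31 therefore does not show that the groups were alike. Of the 123 hairpins the groups did not overlap in 48 (39.0%), and both miR-21a and miR-31 were among those that overlapped. Hairpins entered on reads summed over the 6 libraries, so the added 0.5 read can set an Fb ratio. The 48 include miR-96, whose log2 ratio was 0.0 (SD 0.0) in Fb exosomes, so the 39.0% and the Fb ranks are not of measured ratios alone. By mean log2 arm ratio miR-21a ranked 27 in ESC and 28 in Fb exosomes, where rank 1 is the strongest excess of the 5p arm. miR-31 ranked 16 in ESC exosomes, and its Fb rank is not given because the added 0.5 read sets its ratio in Fb replicates 1 and 3.

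**Figure D3:**
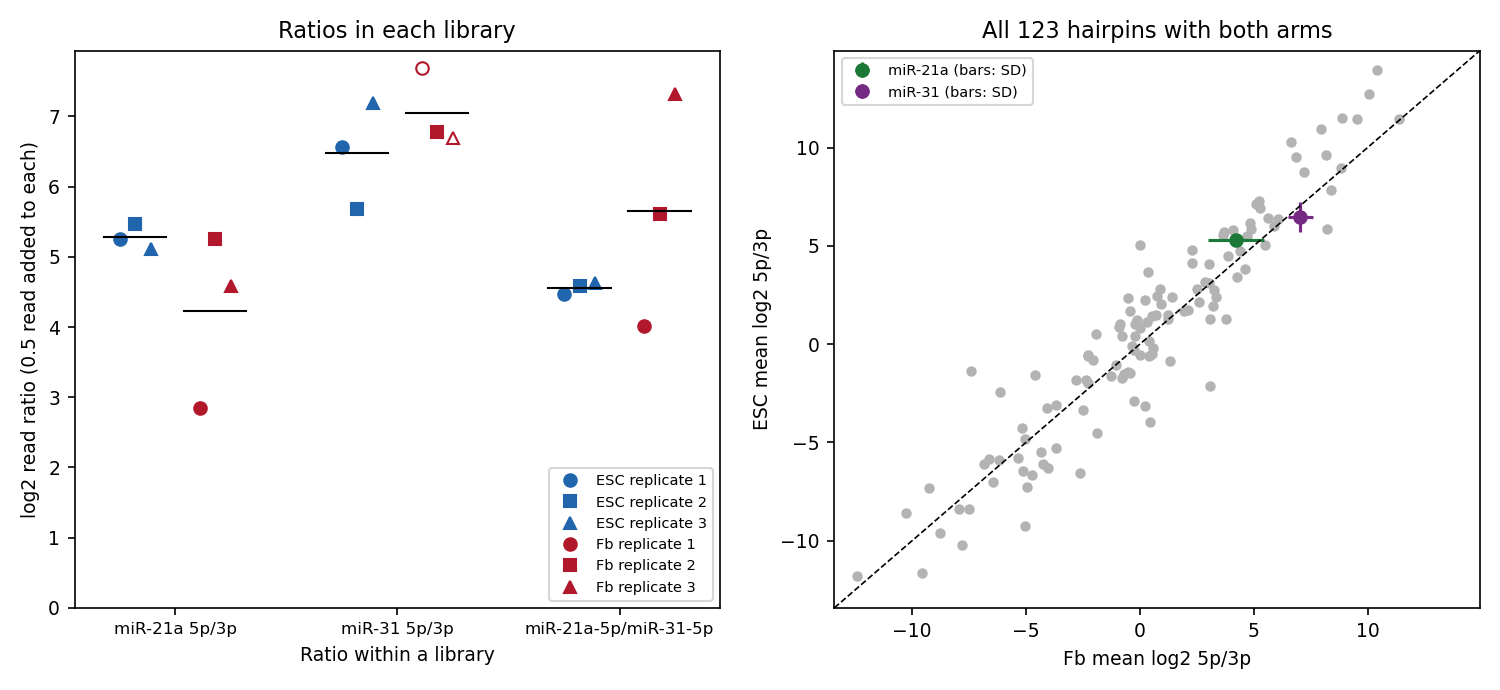
Left, log2 read ratios within each library (0.5 read added to each count) for the arms of miR-21a, the arms of miR-31 and miR-21a-5p over miR-31-5p, with ESC in blue, Fb in red, group means as black lines and open symbols where miR-31-3p had 0 reads. Right, mean log2 arm ratio in ESC against Fb exosomes for 123 hairpins (grey), with miR-21a and miR-31 coloured, SD bars and the line of equality dashed. The ESC points lie close together for miR-21a and for the guide ratio, and Fb replicate 1 is the lowest point in both.

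The ratio of the guides to each other needs no library size. There were 22.2, 24.0 and 24.7 reads of miR-21a-5p per read of miR-31-5p in ESC replicates 1 to 3. In Fb replicates 1 to 3 there were 16.3, 48.8 and 161. The ESC libraries spanned 1.11-fold and the Fb libraries 9.87-fold, with Fb replicate 1 below and Fb replicates 2 and 3 above every ESC library. The mean log2 ratio was 4.56 ± 0.08 (SD, n = 3) for ESC and 5.65 ± 1.65 (SD, n = 3) for Fb exosomes, with an exact two-sided permutation p = 0.4. The larger ESC excess of miR-31-5p over that of miR-21a-5p in the fold changes was therefore not separable from the spread of the Fb libraries.

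The miRNAs whose levels followed the guides most closely were sought among 178 others with a mean of at least 100 CPM, by Pearson's r of log2 CPM over the 6 libraries. These points share the split into 2 groups and the depth of each library, so r is a description only. For miR-21a-5p they were miR-34c-5p (r = 0.989), a p53-induced miRNA, miR-1843a-5p (r = 0.984) and miR-16-5p (r = 0.983), a brake on the cell cycle. As with miR-21a-5p, all of these were lowest in Fb replicate 1, at 367 CPM for miR-34c-5p against 1971 and 1339 CPM in Fb replicates 2 and 3. miR-1843a-5p was listed at 5.90 CPM in Fb replicate 1, below the 3-read floor of that library, 61.2 CPM. Its r rests in part on this unresolved value. For miR-31-5p they were miR-425-5p (r = 0.985), miR-30e-5p (r = 0.968) and miR-672-5p (r = 0.942), all with their lowest listed value in Fb replicate 3, where miR-425-5p stood at 429 CPM against 877 and 669 CPM in Fb replicates 1 and 2. miR-672-5p stood at 8.42 CPM there and 22.5 CPM in Fb replicate 2. Both lie below the 3-read floor of Fb replicate 3, 25.3 CPM, so their order was not resolved.

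Other miRNAs known from skin wounds and inflammation moved in both directions. Of a list of 26, 24 were tested and 13 (54.2%) passed, 6 with ESC exosomes higher and 7 with Fb exosomes higher, beside the 49.5% of all miRNAs. The list's median log2 fold change was -0.08, beside -0.11 for all miRNAs tested. The rest, miR-223-3p and miR-483-3p, had too few reads to be tested. When fitted with all other RNAs, 2 (8.33%) passed, both higher in ESC exosomes, beside 11.8% of all RNAs. Without Fb replicate 3 the list had 1 member with ESC exosomes higher, beside 38 of all 374 miRNAs tested. With Fb exosomes higher it had 11 without Fb replicate 1, beside 110 of 380, and 4 without ESC replicate 2, beside 63 of 244. It had 3 without ESC replicate 1 (62 of 244), without Fb replicate 2 (79 of 379) or without Fb replicate 3 (65 of 374).

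On the ESC side stood miR-146a-5p, a brake on NF-kB signalling, at 57231 ± 5143 CPM (SD, n = 3) against 1994 ± 1031 CPM in Fb exosomes. Its log2 fold change was 5.31 ± 0.38 (SE), with an edgeR adjusted p = 5.66e-05. miR-205-5p (log2 fold change 2.44), a miRNA of stratified epithelium, miR-203-3p (3.08), which promotes keratinocyte differentiation, and miR-26a-5p (1.22) passed in the same direction. Since miR-205-5p and miR-203-3p are also on the keratinocyte list above, they are not a result separate from it. On the Fb side miR-29a-3p, a repressor of collagen genes, stood at 10255 ± 4808 CPM (SD, n = 3) against 358 ± 61.5 CPM in ESC exosomes. Its log2 fold change was -4.51 ± 0.56 (SE), with an edgeR adjusted p = 7.19e-04. miR-100-5p (-2.53), miR-132-3p (-1.29) and miR-212-3p (-1.82), the last pair made from one transcript, passed in the same direction. These Fb directions were of shares of miRNA reads. As log2 fold changes in the fit of all RNAs with library totals alone, miR-100-5p (0.37), miR-132-3p (1.64) and miR-212-3p (1.02) were above 0 and miR-29a-3p (-1.79) was below it. That scaling put the median of the miRNAs at 3.15, all 4 values lay below this median, and none of the 4 passed (edgeR adjusted p from 0.262 to 0.820).

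The plot of settings shows how far each member's result rested on one choice. In the test on miRNAs with all 6 libraries, miR-31-5p passed under 7 of 10 settings, miR-21a-5p under 3 of 10 and miR-21a-3p under 0 of 10. The 10 include the fit with all other RNAs, with p adjusted over its miRNAs alone.

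**Figure D4:**
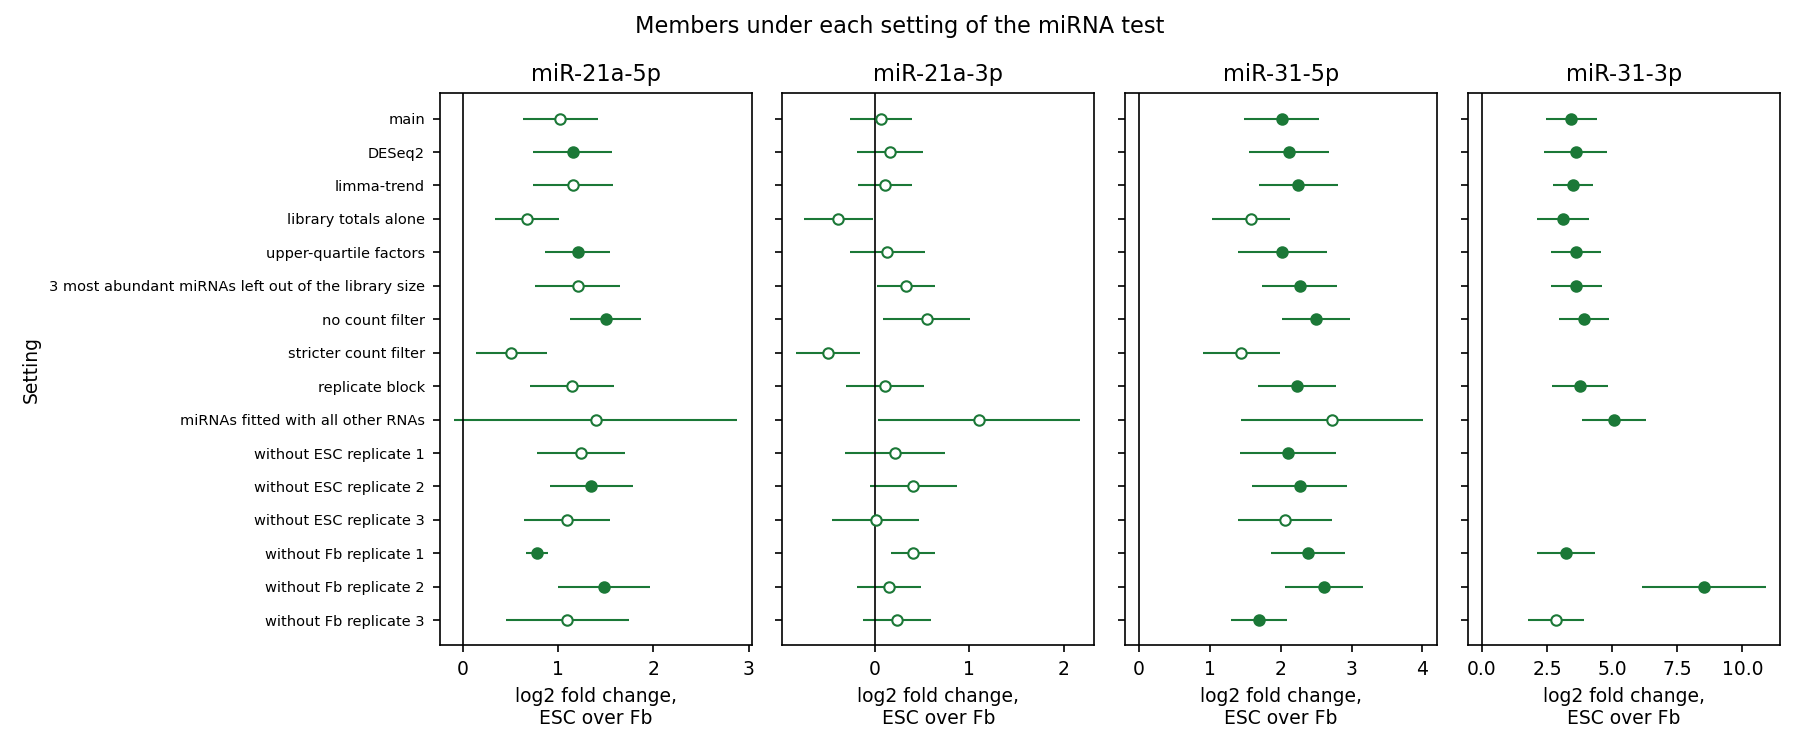
The log2 fold change, ESC over Fb, of each member (one panel each) under each setting of the test on miRNAs, with SE bars and filled points where the adjusted p was under 0.05. miR-21a-5p and miR-31-5p lie above 0 under every setting drawn, miR-21a-3p lies on both sides of 0, and settings without a point for miR-31-3p did not test it.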

How the data were processed

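The values the authors deposited are estimated counts, one per non-coding RNA row, and 81.4% to 91.8% of nonzero values in a library were fractional by more than 0.001. Per the submitters' processing notes FastQC, cutadapt and build GRCm38 were used. The aligner, the counter, strand and the treatment of multi-matching reads are, in the sources used here, not given. Libraries were grouped by title. The members and lists were chosen with earlier results of these data known.

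Counts were rounded and tested with edgeR 4.0.16 (R 4.3.3; quasi-likelihood, TMM, filterByExpr at count 10 and total 15), both on mature miRNAs (library size: their summed reads) and on all RNAs, with Benjamini-Hochberg adjusted p of 0.05. SE is the log2 fold change over the root of F. Ratios and shares were compared with exact permutation tests (scipy 1.17.1), and hairpins needed 10 reads per arm over the 6 libraries. Intervals are exact (Clopper-Pearson, 95%). Alternatives were DESeq2 1.42.0, limma 3.58.1 (prior count 2), other factors, library sizes and filters (50 reads in 3 libraries), the replicate block and each library left out. Fits were also run on simulated data with the same dispersion in every library. That run does not cover the wider spread of the Fb libraries. Named were the members, their near copies, hairpin rows and seed partners, the 3 nearest patterns per guide and up to 4 list members per direction by p with at least 10 CPM. RefSeq matched 1673 of 1964 mature rows. No pair of libraries within a group agreed within sampling noise (chi-square over df at least 16.0).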

Additional observations from a re-analysis of the deposited data

How the results depend on the processing

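The number of miRNA reads limited the Fb libraries most, where 3 reads were 16.9 to 61.2 CPM against 1.97 to 2.15 CPM in ESC libraries. The cause of the changes below was not tested. In the test on miRNAs, miR-21a-5p passed by DESeq2 (log2 fold change 1.15), with upper-quartile factors (1.20, edgeR adjusted p = 0.0253) and with no count filter (1.50, edgeR adjusted p = 5.32e-04), where the median of all miRNAs was 1.31. miR-21a-3p turned with library totals alone (-0.38) and the stricter filter (-0.49). miR-31-5p no longer passed with library totals alone (1.58), the stricter filter (1.45) or when fitted with all other RNAs (2.72, edgeR adjusted p = 0.143). That value was adjusted over the 307 miRNAs of the fit, and the edgeR adjusted p of 0.251 given above was over all 2999 RNAs. The stricter filter called 36 miRNAs with ESC exosomes higher, 53 with Fb exosomes higher and 3 wound list members with ESC exosomes higher, and left miR-31-3p untested. No count filter gave 3 wound list members higher in Fb exosomes. Fitted with all RNAs and adjusted over the miRNAs alone, 22 miRNAs and 0 wound list members were higher in Fb exosomes. In ESC exosomes 2 wound list members were higher.

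Leaving out one library at a time gave log2 fold changes of 0.77 to 1.48 for miR-21a-5p, 1.69 to 2.61 for miR-31-5p and 2.85 to 8.52 for miR-31-3p, which was not tested without an ESC library. The calls were 38 to 103 miRNAs higher in ESC, and 1 to 8 (ESC) and 3 to 11 (Fb) wound list members. In the fit of all RNAs the values were 2.19 to 5.02 for miR-31-5p, which passed without Fb replicate 2 (edgeR adjusted p = 0.0364), and 3.35 to 8.92 for miR-31-3p, and 4.66 to 5.79 for the log2 ratio of miR-31-5p shares of all reads. In the fit of all RNAs, library totals alone gave 3.76 (miR-21a-5p), 3.11 (miR-21a-3p) and 5.03 (miR-31-5p), and DESeq2 gave 4.17 for miR-31-3p. The miR-31 arm difference was 0.16 with a pseudocount of 1 read, and the log2 ratio of miR-21a-3p shares was 2.63 without tRNA reads in the total.

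The deviations of same-numbered ESC and Fb libraries correlated at -0.25, -0.15 and -0.14 over 296 miRNAs, and those of other-numbered libraries at -0.25 to 0.34. Deviations from a mean of 3 libraries constrain each other, so these values cannot show whether the replicate numbers pair the libraries. With the replicate block 45 miRNAs were called higher in ESC and 4 wound list members higher in Fb exosomes, and no member's call changed.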
